A study of Mus musculus with 35 samples.

Results

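The genes described here are 37 ribosome biogenesis factors, chosen by name for the roles of their products. Earlier results of these data were known when they were chosen, so the shares of members called are descriptions and not tests. A single-gene probe set gave a value for 36 of the 37, out of 12678 genes tested on the arrays. For each gene the single-gene probe set with the highest mean signal was used. The exception was Mrto4, a large subunit factor related to a ribosomal stalk protein. Its only probe set is annotated to 3 genes, so it was left out of every count. Livers came from 35 BALB/c mice that were sampled 6 h after 1 intravenous injection, with 5 mice in each of 7 groups. The control group received deionized water. SP70 silica particles were given at 10, 20 or 40 mg/kg, SP30 particles at 10 mg/kg and SP300 particles at 10 or 200 mg/kg. The study asked how the liver responded to the dose of SP70, and to particle size at an equal dose and at doses that it calls toxic (SP30 at 10, SP70 at 40 and SP300 at 200 mg/kg). All mice were of 1 strain and no other agent is named, and the RNA is from aliquots of the left lateral lobe.

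Ribosomes are made in the nucleolus. RNA polymerase I transcribes a long precursor rRNA, and small nucleolar ribonucleoproteins (snoRNPs) guide its chemical modification: box C/D snoRNPs place methyl groups and box H/ACA snoRNPs turn uridine into pseudouridine. Large assemblies then fold and cut the precursor into the RNAs of the small (40S) and large (60S) subunits. In liver the pathway is best known from regeneration and from changes in feeding, in which hepatocytes alter their output of ribosomes, and many of its genes are known targets of the transcription factor Myc, which binds the E-box CACGTG.

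Stretches of member promoters are shown because many of these genes are known to carry E-boxes. Among the members that rose most, Tsr1 had CACGTG in its promoter, and Nop58 and Nolc1 did not. Wdr43 and Pes1, also shown, had it, but Pes1 rose at SP70 20 mg/kg alone, by 0.29. RefSeq promoter windows of 300 bases (250 before and 50 after the annotated gene start, build GRCm38.p6) were found for 32 of the 37 members, as 35 windows. Rrp12, Bop1, Npm1, Fbl and Rrs1 are named only. The 5 stretches run from 90 bases before to 30 bases after the start, 5′ to 3′ on the strand of the gene, and capitals mark the E-box CACGTG and the GC box GGGCGG, each searched on both strands.
Tsr1, chr11:74897990-74898109, plus strand: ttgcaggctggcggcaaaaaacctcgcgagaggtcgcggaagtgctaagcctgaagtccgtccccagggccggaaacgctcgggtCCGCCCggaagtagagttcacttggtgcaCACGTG
Wdr43, chr17:71616125-71616244, plus strand: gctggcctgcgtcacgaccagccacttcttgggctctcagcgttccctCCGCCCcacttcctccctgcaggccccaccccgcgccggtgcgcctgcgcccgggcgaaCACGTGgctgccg
Pes1, chr11:3963885-3964004, plus strand: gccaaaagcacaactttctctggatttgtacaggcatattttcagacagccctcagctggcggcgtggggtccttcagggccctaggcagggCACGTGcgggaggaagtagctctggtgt
Nop58, chr1:59684916-59685035, plus strand: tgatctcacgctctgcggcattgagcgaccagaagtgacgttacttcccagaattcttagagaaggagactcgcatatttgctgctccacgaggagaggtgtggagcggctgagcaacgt
Nolc1, chr19:46075757-46075876, plus strand: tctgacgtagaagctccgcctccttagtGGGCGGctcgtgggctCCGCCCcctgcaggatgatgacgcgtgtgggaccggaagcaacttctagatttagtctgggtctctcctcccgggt

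The E-box CACGTG was present in 8 of 35 member windows (22.9%), against 7.15% of all 32851 windows and 9.68% of the windows of genes tested on the arrays. The 8 members were Imp4, Ltv1, Mybbp1a, Nop2, Pes1, Tsr1, Utp20 and Wdr43, and 5 of them (Ltv1, Mybbp1a, Pes1, Tsr1 and Wdr43) were higher than control in at least 1 treated group. So were 11 of the 23 members with a window and a value but no CACGTG. In Tsr1 the match lay 25 to 30 bases after the start, in Wdr43 18 to 23 and in Pes1 3 to 8. Nop58 and Nolc1, which are among the members that rose most, had no CACGTG in the window. The GC box GGGCGG was present in 25 of 35 member windows (71.4%), against 35.7% of all windows and 58.9% of those of tested genes. The ETS motif CCGGAAG was found in 11 of 35 member windows (31.4%), against 8.86% and 15.9%. The NRF1 core GCATGCGC was in 1 member window (2.86%, against 2.71% of all windows and 4.75% of those of tested genes) and TATAAA in 2 (5.71%, against 13.6% and 8.07%). All motifs were searched on both strands. No motif of the list holds another, but matches of different motifs can share bases. A match is a description of letters in the window and not a measured binding site.

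Signals are the authors' linear array intensities. Differences are of log2(signal + 12.5), where 12.5 is a pseudocount, and are given as the treated mean minus the control mean ± the standard error (SE) of the fit. Adjusted p values come from limma (moderated, two-sided) with Benjamini-Hochberg adjustment over all 12678 genes, and a gene is said to have risen or fallen where it was under 0.05. Folds are ratios of mean signals. Array medians ran from 149 to 180. Of the 36 members, 34 were above 165, the median of all values, on all 35 arrays. In these bulk samples fewer cells of a type and less RNA per cell cannot be told apart. The liver label was checked against 13 hepatocyte markers, whose summed signal ran from 862109 to 912976 in control mice and was 725859 or more in every treated mouse. The hepatocyte sum was 725859 to 891227 with SP70 at 40 mg/kg and 751371 to 888952 with SP300 at 200 mg/kg. Other cell types moved with treatment. The sum of 11 neutrophil markers, of 14 listed, was 2626 to 7347 in control mice and 6182 to 14298 with SP300 at 10 mg/kg. It was 79217 to 109766 with SP70 at 10 mg/kg, 96282 to 109384 at 20 mg/kg and 94811 to 146238 at 40 mg/kg, 127178 to 148968 with SP30 and 85407 to 99104 with SP300 at 200 mg/kg. The sum of 13 Kupffer cell markers, of 14 listed, went the other way. It was 42432 to 61848 in control mice and 49482 to 64114 with SP300 at 10 mg/kg, but 17850.5 to 33743 with SP70 at 10 mg/kg, 9583 to 11981 at 20 mg/kg and 6215 to 10557 at 40 mg/kg, 12792 to 26290.0 with SP30 and 8864 to 10643 with SP300 at 200 mg/kg. For 12 sinusoidal endothelial cell markers the sum was 23456 to 34586 in control mice and 33534 to 38896 with SP300 at 10 mg/kg. It was 19174.5 to 28699.5 with SP70 at 10 mg/kg, 19808 to 24136.5 at 20 mg/kg and 5589 to 14433.5 at 40 mg/kg. With SP30 it was 8779 to 15263 and with SP300 at 200 mg/kg 10254 to 23313. For 10 stellate cell markers it was 30344 to 38463 in control mice, 18531 to 33591 with SP70 at 40 mg/kg and 17010.5 to 28316 with SP30. For 7 monocyte markers, of 11 listed, the sum was 38453 to 40802 in control mice and 38480 to 50385 with SP300 at 10 mg/kg. With SP70 it was 47926 to 56275, 51129 to 55737 and 45053 to 59485 in order of dose. With SP30 it was 55142 to 59470 and with SP300 at 200 mg/kg 43068.5 to 49278. The sum of 8 dividing-cell markers was 1514 to 2966 in control mice and 676 to 2162 with SP30. With SP70 it was 1187 to 4355 at 10 mg/kg, 1342 to 1889.8 at 20 mg/kg and 955 to 2725 at 40 mg/kg. With SP300 it was 1124 to 4466 at 10 mg/kg and 831 to 3524 at 200 mg/kg. The part of these shifts in the member differences was not tested.

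Of the 36 members, 16 rose in at least 1 treated group against control, 3 fell (Wdr12, Dkc1 and Fbl), 17 did neither and 0 went both ways. The box C/D core protein Nop58, the late 40S factor Tsr1 and the nucleolar GTPase Gnl3 rose in all 5 groups other than SP300 at 10 mg/kg. Counts against control were 5 higher and 1 lower with SP70 at 10 mg/kg (all genes 12.5% higher and 5.69% lower), 13 and 2 at 20 mg/kg (all genes 18.8% and 20.9%) and 10 and 3 at 40 mg/kg (all genes 15.6% and 28.8%). With SP30 they were 11 and 3 (all genes 18% and 31.3%) and with SP300 at 200 mg/kg 6 and 0 (all genes 12.6% and 18%). The 5 called higher with SP70 at 10 mg/kg (13.9%) and the 6 with SP300 at 200 mg/kg (16.7%) are near the share of all genes, while the 13 at SP70 20 mg/kg are 36.1% of the members, the 11 with SP30 30.6% and the 10 at SP70 40 mg/kg 27.8%. With SP300 at 10 mg/kg, limma called 0 members (4 at an unadjusted p under 0.05), where it called 0.923% of all genes higher and 0.245% lower. The members' median differences were 0.13, 0.21 and 0.23 over the SP70 doses, 0.18 with SP30, -0.04 with SP300 at 10 mg/kg and 0.15 with SP300 at 200 mg/kg. The medians of all genes in the same order were 0.01, -0.03, -0.09, -0.12, 0.06 and -0.06. These comparisons share the 5 control mice, and the members were chosen with earlier results of these data known.

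**Figure D1:**
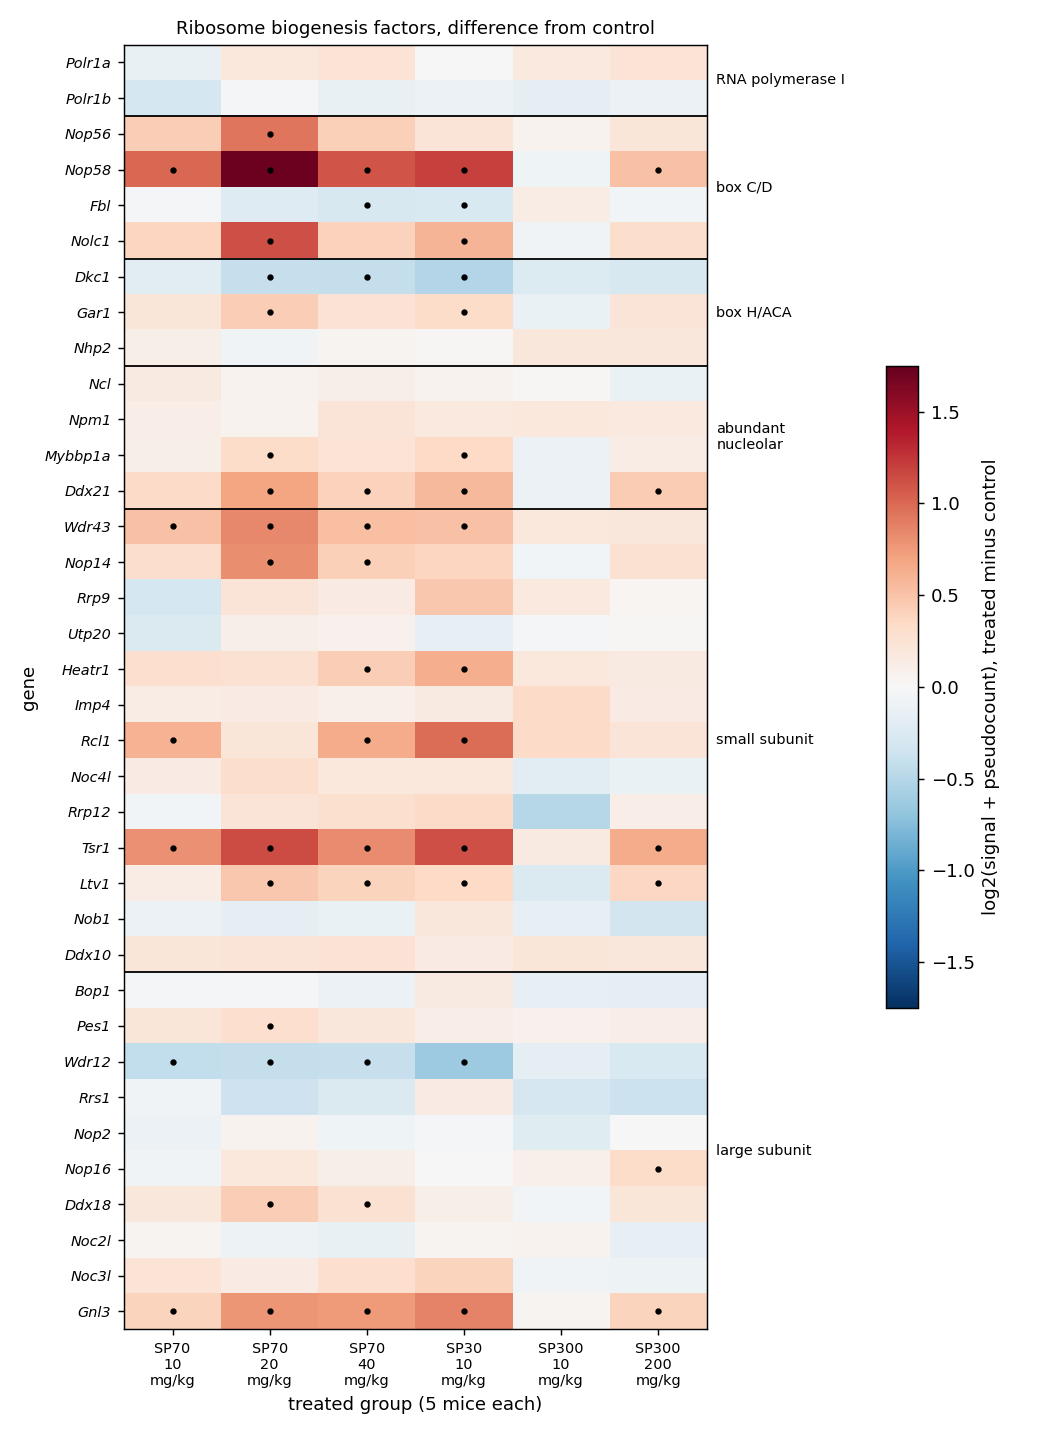
Difference from control in log2(signal + pseudocount) for 36 ribosome biogenesis factors (rows, grouped by role) in the 6 treated groups (columns, 5 mice each); dots mark an adjusted p under 0.05 and the color runs from blue (lower) to red (higher). The darkest cell is Nop58 with SP70 at 20 mg/kg, and the column of SP300 at 10 mg/kg holds no dot.

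The counts depended on single mice and on the scaling in some comparisons. Without SP70 10 mg/kg replicate 4, 9 members rose at that dose rather than 5. With SP300 at 200 mg/kg, 2 rose without control replicate 4, and 3 without control replicate 3, SP300 200 mg/kg replicate 2 or SP300 200 mg/kg replicate 4. Quantile normalization raised the count at SP70 40 mg/kg to 18 higher and 2 lower and that of SP300 at 200 mg/kg to 10 and 0, and it gave 4 higher and 2 lower at SP70 10 mg/kg. At SP70 20 mg/kg quantile normalization gave 12 higher and 3 lower, and with SP30 16 and 3. Centring the arrays on their medians gave 11 higher and 4 lower at SP70 20 mg/kg and 13 and 3 with SP30. The highest count of rises was thus at SP70 40 mg/kg under quantile normalization and with SP30 under centring. In all alternatives and with each mouse left out, no member that passed the threshold against control changed its direction. Where an adjusted p is given below as reaching a value, or up to a value, it is the highest over these alternatives and left-out mice.

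Averaged over the 36 members, the level per mouse relative to the control mean was 0.29 ± 0.07 (SD, n = 5) on the log2 scale with SP70 at 20 mg/kg, 0.25 ± 0.06 with SP30, 0.21 ± 0.11 with SP70 at 40 mg/kg, 0.14 ± 0.21 with SP70 at 10 mg/kg, 0.11 ± 0.13 with SP300 at 200 mg/kg and -0.01 ± 0.15 with SP300 at 10 mg/kg. The control SD was 0.15. Mice given SP70 at 20 mg/kg or SP30 lay close together (0.18 to 0.36 and 0.19 to 0.34), and those given SP70 at 10 mg/kg ran from -0.14 to 0.46. The control mice ran from -0.19 to 0.18. The lowest mouse given SP70 at 20 mg/kg lay just below the highest control mouse, and the SP30 mice lay just above it. Neighbouring groups in this order overlapped. With arrays centred on their medians the order changed: the mean was 0.276 with SP30, 0.206 with SP70 at 20 mg/kg, 0.163 with SP300 at 200 mg/kg, 0.16 with SP70 at 40 mg/kg, 0.101 with SP70 at 10 mg/kg and -0.03 with SP300 at 10 mg/kg, and all 6 treated groups then overlapped the control mice.

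**Figure D2:**
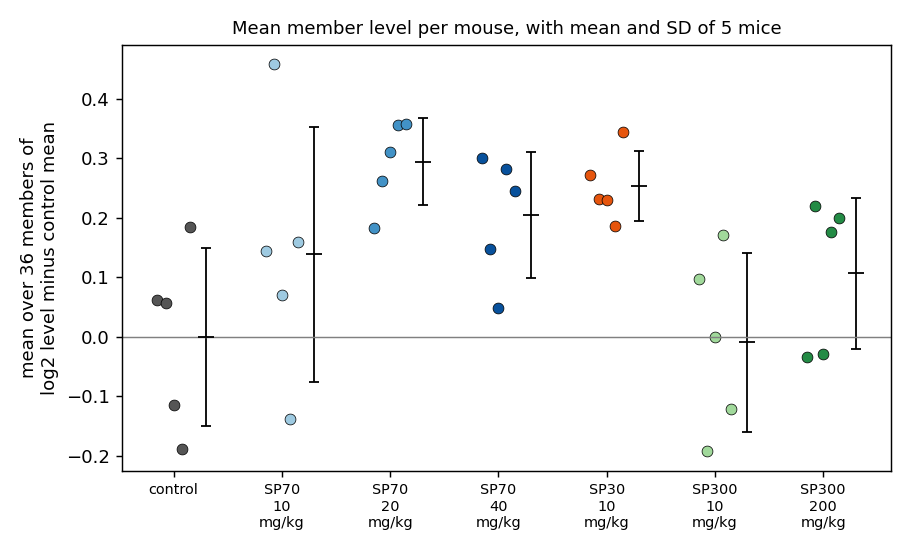
Mean over 36 members of the log2 level minus the control mean, 1 point per mouse, in the control and 6 treated groups; bars show the mean and SD of 5 mice. The mice given SP70 at 20 mg/kg or SP30 form narrow groups between 0.18 and 0.36, and those given SP70 at 10 mg/kg are the most spread, from -0.14 to 0.46.

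Among the box C/D proteins, the paired core proteins Nop56 and Nop58 rose, Nop56 at SP70 20 mg/kg alone. Fbl (fibrillarin), the methyltransferase of the same particle, fell with SP70 at 40 mg/kg and with SP30, where Nop58 rose and Nop56 did not pass the threshold. Nop58 had the largest rise of any member in 4 of the 6 comparisons with control. Its signal was 1461, 1582, 1913, 2162 and 2431 in the 5 control mice. With SP70 it was 2836, 3289.6, 3562, 4650.0 and 4870.2 at 10 mg/kg, then 5127, 6177, 6529, 6617 and 6781 at 20 mg/kg, and 3077, 3316, 4048, 4268 and 6085 at 40 mg/kg. With SP30 it was 3519, 3760.5, 3944, 5055 and 5737. With SP300 it was 1389, 1429, 1562, 2001 and 2837 at 10 mg/kg, and 2027, 2217, 2961, 3089 and 3419.9 at 200 mg/kg. Every mouse of the SP70 and SP30 groups lay above every control mouse, and both SP300 groups overlapped the controls. The differences were 1.00 ± 0.19 (adjusted p = 0.000187), 1.72 ± 0.19 (adjusted p = 6.6e-09) and 1.10 ± 0.19 (adjusted p = 1.43e-05) over the SP70 doses, 1.20 ± 0.19 (adjusted p = 3.03e-06) with SP30 and 0.52 ± 0.19 (adjusted p = 0.0387) with SP300 at 200 mg/kg. The mean signal was 3.27-fold the control mean at SP70 20 mg/kg. The SP300 call at 200 mg/kg was lost without any 1 of 6 mice (control replicates 2, 3 and 4 and SP300 200 mg/kg replicates 2, 4 and 5), and with no filter or no trend in the moderation, and the adjusted p reached 0.118.

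Against control, Nop56 passed the threshold only with SP70 at 20 mg/kg. Its signal there was 2216, 2587, 2878, 2889 and 3433, against 1119, 1294, 1459.5, 1542 and 1961 in control mice, with no overlap, and the difference was 0.93 ± 0.20 (adjusted p = 0.00024). At SP70 40 mg/kg it was 0.41 ± 0.20 (adjusted p = 0.0871), and SP70 40 mg/kg replicate 1, at 2981, stood above its 4 companions (1421 to 2024). The same mouse was the highest of its group for Nop58, at 6085. A second Nop56 probe set (mean signal 1193) gave only 0.22 with SP70 at 20 mg/kg, and the call there stood when the probe sets were averaged. Nolc1, a chaperone of snoRNPs also called Nopp140, had 2885, 2904, 3076, 3539.7 and 3609.9 at SP70 20 mg/kg, against 1120.5, 1146, 1482, 1630.1 and 2062 in control mice. All 5 treated mice lay above the controls, and the difference was 1.13 ± 0.19 (adjusted p = 9.63e-06). With SP30 Nolc1 rose by 0.59 ± 0.19 (adjusted p = 0.00896), a call that was lost (adjusted p = 0.432) when all its single-gene probe sets were averaged. Fbl was 3033, 3146, 3176, 3182 and 3602 at SP70 40 mg/kg and 2743, 3169, 3434, 3438 and 3502 with SP30, against 3261, 3595, 4064, 4317 and 4449 in control mice. The groups overlapped, and the differences were -0.28 ± 0.10 (adjusted p = 0.0171) and -0.27 ± 0.10 (adjusted p = 0.0193). The first was lost under quantile normalization and without control replicate 1 or 5, and the second without control replicate 1 or 5 or SP30 10 mg/kg replicate 1, with adjusted p up to 0.120 and 0.0802.

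**Figure D3:**
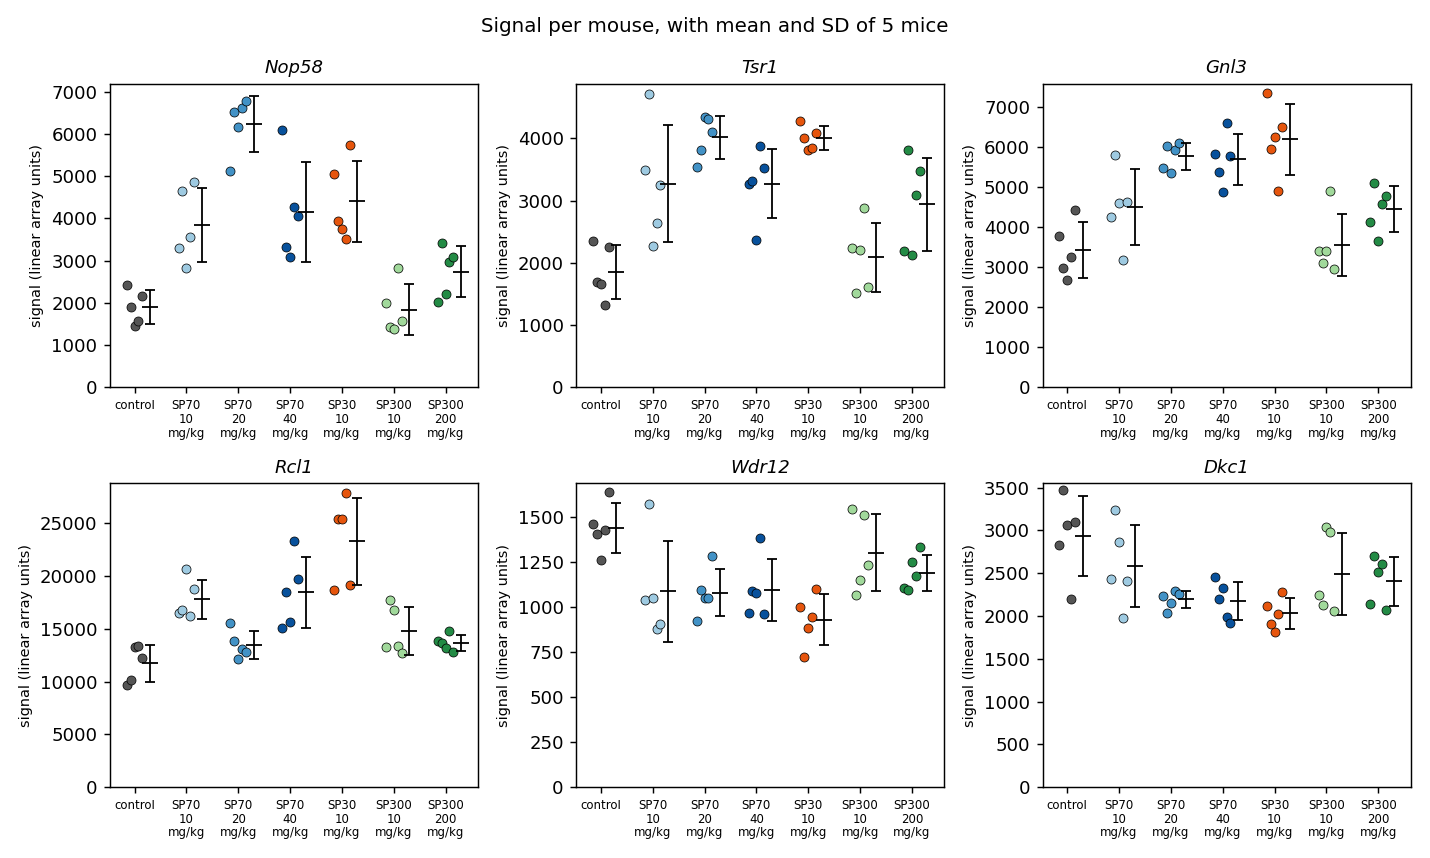
Signal of 6 members per mouse on a linear scale from 0, in the control and 6 treated groups; bars show the mean and SD of 5 mice. Nop58, Tsr1 and Gnl3 lie above the control mice in the SP70 20 and 40 mg/kg and SP30 groups, Rcl1 is lower at SP70 20 mg/kg than at the other SP70 doses and with SP30, and Wdr12 and Dkc1 lie lower in the SP30 group.

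The box H/ACA proteins also moved apart. Dkc1 (dyskerin), the pseudouridine synthase, fell with SP70 at 20 and 40 mg/kg and with SP30. Its signal was 1816, 1909, 2024, 2116 and 2283 with SP30 and 2198, 2834, 3061, 3099 and 3468 in control mice, so all but 1 of the control mice lay above all SP30 mice. The differences were -0.40 ± 0.12 (adjusted p = 0.00883), -0.42 ± 0.12 (adjusted p = 0.00574) and -0.52 ± 0.12 (adjusted p = 0.000702). A second Dkc1 probe set went the other way at SP70 20 mg/kg (0.39), where the call was lost when the probe sets were averaged (adjusted p = 0.254), and the same way in the other 2 comparisons (-0.42 and -0.64), and another followed the first in all 3 (-0.48, -0.46 and -0.51). Gar1, which binds dyskerin, rose by 0.43 ± 0.11 (adjusted p = 0.00265) with SP70 at 20 mg/kg, from 1657 ± 207 (SD, n = 5) to 2218 ± 104, and by 0.32 ± 0.11 (adjusted p = 0.0176) with SP30. Its SP30 call was lost without control replicate 4 or SP30 10 mg/kg replicate 1 (adjusted p up to 0.0636). Nhp2, the remaining member of that particle, did not pass the threshold, with group means from 4587 to 5581 and differences from -0.07 to 0.20.

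Of the 13 small subunit factors, 3, 4 and 6 rose over the SP70 doses (all genes 12.5%, 18.8% and 15.6%). With SP30 5 rose (all genes 18%). With SP300 0 rose at 10 mg/kg (all genes 0.923%) and 2 at 200 mg/kg (all genes 12.6%). Tsr1, a GTPase-like factor of late 40S precursors, had a signal of 1329, 1658, 1690.4, 2259.7 and 2354 in control mice. With SP70 it was 2271, 2634, 3245, 3498 and 4712 at 10 mg/kg, then 3537, 3807, 4104, 4307 and 4338 at 20 mg/kg, and 2373, 3276, 3320.0, 3518 and 3887 at 40 mg/kg. With SP30 it was 3813, 3849, 4011, 4094 and 4277. With SP300 it was 1515, 1609.7, 2214, 2237 and 2875 at 10 mg/kg, and 2126, 2199.6, 3094, 3473 and 3808 at 200 mg/kg. The groups given SP70 at 20 or 40 mg/kg or SP30 did not overlap the controls. The differences were 0.80 ± 0.18 (adjusted p = 0.00131), 1.14 ± 0.18 (adjusted p = 4.41e-06), 0.83 ± 0.18 (adjusted p = 0.000287), 1.13 ± 0.18 (adjusted p = 2.65e-06) and 0.65 ± 0.18 (adjusted p = 0.00552), in the order SP70 10, 20 and 40, SP30 and SP300 200 mg/kg. A second Tsr1 probe set rose in the same 5 comparisons, from 0.36 to 0.93. All 5 calls stood without any 1 mouse and in every alternative. Ltv1, which works beside Tsr1 on late 40S particles, rose by 0.47 ± 0.10 (adjusted p = 0.000348), 0.39 ± 0.10 (adjusted p = 0.00213), 0.35 ± 0.10 (adjusted p = 0.00422) and 0.36 ± 0.10 (adjusted p = 0.0066) with SP70 at 20 and 40 mg/kg, SP30 and SP300 at 200 mg/kg.

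Rcl1, a cyclase-like protein of the early processing complex, took another course. Its signal was 9676, 10170.2, 12192, 13282 and 13340.3 in control mice. Mice given SP70 had 16211, 16480.3, 16811, 18779 and 20646 at 10 mg/kg, then 12182, 12769, 13073, 13879.7 and 15563 at 20 mg/kg, and 15087, 15672, 18485, 19717 and 23339 at 40 mg/kg. Mice given SP30 had 18662, 19124, 25382, 25434 and 27877. Mice given SP300 had 12686, 13313, 13376, 16745 and 17701 at 10 mg/kg, and 12844, 13175, 13703, 13865 and 14766 at 200 mg/kg. The SP70 10, SP70 40 and SP30 groups lay wholly above the controls, and the SP70 20 group did not. The differences were 0.61 ± 0.12 (adjusted p = 0.000236), 0.21 ± 0.12 (adjusted p = 0.168) and 0.65 ± 0.12 (adjusted p = 2.91e-05) over the SP70 doses and 0.98 ± 0.12 (adjusted p = 1.71e-08) with SP30, the last 1.99-fold in mean signal.

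Of the processome components, Wdr43 rose by 0.51 ± 0.13 (adjusted p = 0.00544), 0.84 ± 0.13 (adjusted p = 4.51e-06), 0.53 ± 0.13 (adjusted p = 0.00143) and 0.51 ± 0.13 (adjusted p = 0.00169) with the SP70 doses in order and SP30. Its signal at SP70 20 mg/kg was 2266, 2293, 2479, 2594 and 2863, against 1256, 1276, 1366, 1369 and 1720.4 in control mice. Nop14 rose by 0.82 ± 0.17 (adjusted p = 0.000165) at SP70 20 mg/kg, and by 0.42 ± 0.17 (adjusted p = 0.0422) at 40 mg/kg, where the call was lost with arrays centred, with no filter and without any 1 of 6 mice (control replicates 3, 4 and 5 and SP70 40 mg/kg replicates 1, 4 and 5), with adjusted p up to 0.136. Heatr1, a large repeat protein of the same complex, was 2341, 2484, 2876, 2899 and 3184 with SP30 and 1450.2, 1593, 1835, 1849.8 and 2148 in control mice, and rose by 0.64 ± 0.11 (adjusted p = 7.23e-06), and by 0.44 ± 0.11 (adjusted p = 0.00109) with SP70 at 40 mg/kg. Both Heatr1 calls were lost when its probe sets were averaged (adjusted p = 0.0859 and 0.487). The other small subunit factors did not pass the threshold against control. They are the U3-binding protein Rrp9 (differences from -0.31 to 0.46), Utp20 (-0.25 to 0.10), the U3 snoRNP protein Imp4 (0.09 to 0.33), Noc4l (-0.19 to 0.30), the export factor Rrp12 (-0.50 to 0.33), the nuclease Nob1, which makes the last cut of 18S rRNA (-0.32 to 0.19), and the helicase Ddx10 (0.14 to 0.25). A second Ddx10 probe set (mean signal 522) ran from 0.01 to 0.83, the highest with SP70 at 20 mg/kg.

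Large subunit factors also split. Gnl3 (nucleostemin), a GTPase of the nucleolus, had a signal of 2684, 2975, 3251, 3793 and 4448 in control mice. With SP70 it was 3187, 4262, 4615, 4646 and 5822 at 10 mg/kg, then 5354, 5484, 5944, 6027 and 6103 at 20 mg/kg, and 4896, 5391, 5777, 5844 and 6604 at 40 mg/kg. With SP30 it was 4912, 5954, 6260.4, 6507 and 7362. With SP300 it was 2953, 3111, 3411, 3411 and 4912 at 10 mg/kg, and 3650.2, 4131, 4595, 4792 and 5102 at 200 mg/kg. The SP70 20, SP70 40 and SP30 groups did not overlap the controls. The differences were 0.39 ± 0.14 (adjusted p = 0.0465), 0.77 ± 0.14 (adjusted p = 2.8e-05), 0.75 ± 0.14 (adjusted p = 3.44e-05), 0.86 ± 0.14 (adjusted p = 3.23e-06) and 0.39 ± 0.14 (adjusted p = 0.0309). The call at SP70 10 mg/kg was lost in 6 alternatives and without any 1 of 7 mice (adjusted p up to 0.167; control replicates 2 to 4 and SP70 10 mg/kg replicates 1, 2, 3 and 5), and that of SP300 at 200 mg/kg without any 1 of 6 (adjusted p up to 0.113; control replicates 2 to 4 and SP300 200 mg/kg replicates 2, 4 and 5).

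Pes1, Bop1 and Wdr12 form the PeBoW complex, which acts in 60S maturation. Wdr12 fell in 4 groups, and the other two members did not follow it. The signal of Wdr12 was 1260.2, 1405, 1427, 1463 and 1641 in control mice. Under SP70 it was 879.7, 904, 1037, 1053 and 1570.4 at 10 mg/kg, then 923, 1049.9, 1053, 1092 and 1284 at 20 mg/kg, and 960.3, 967, 1079, 1087 and 1386 at 40 mg/kg. Under SP30 it was 720.4, 882, 944, 1002 and 1101. The SP30 mice lay wholly below the controls, and in each SP70 group 1 mouse overlapped them. The differences were -0.43 ± 0.13 (adjusted p = 0.0219), -0.41 ± 0.13 (adjusted p = 0.0129), -0.40 ± 0.13 (adjusted p = 0.0149) and -0.63 ± 0.13 (adjusted p = 0.00017). The SP70 10 mg/kg call was lost without control replicate 5 or SP70 10 mg/kg replicate 4 or 5 (adjusted p up to 0.212). A second Wdr12 probe set gave 0.02, 0.28, -0.03 and -0.16 in the same order. Averaging the probe sets removed the call at all 3 SP70 doses and kept it with SP30. Pes1 rose by 0.29 ± 0.11 (adjusted p = 0.0366) with SP70 at 20 mg/kg, a call lost under either rescaling of the arrays and without any 1 of 6 mice (control replicates 1, 3 and 4 and SP70 20 mg/kg replicates 3, 4 and 5), with adjusted p up to 0.170. Bop1 differed by -0.16 to 0.15 with no call.

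The helicase Ddx18 rose by 0.43 ± 0.09 (adjusted p = 0.000415) and 0.26 ± 0.09 (adjusted p = 0.0225) with SP70 at 20 and 40 mg/kg, and the second call was lost with arrays centred and without any 1 of 5 mice (control replicates 2, 3 and 4 and SP70 40 mg/kg replicates 1 and 4; adjusted p up to 0.0842). Nop16 rose with SP300 at 200 mg/kg alone, by 0.33 ± 0.12 (adjusted p = 0.0366). That call was lost when its probe sets were averaged (adjusted p = 0.796), and without any 1 of 6 mice (control replicates 1, 3 and 4 and SP300 200 mg/kg replicates 1, 2 and 4). Rrs1, which helps to bring the 5S particle in, differed from control by -0.37 to 0.14, the rRNA methyltransferase Nop2 by -0.21 to 0.07, Noc2l by -0.14 to 0.06 and Noc3l by -0.09 to 0.39, all without a call. A second Noc3l probe set (mean signal 214) ran from 0.08 to 0.64, and a second Noc2l probe set (294) from -1.10 to 0.14. The unassigned Mrto4 probe set had mean signals from 1609 to 2045 over the 7 groups.

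By the probe sets used, neither RNA polymerase I subunit passed the threshold against control, and of the 4 abundant nucleolar proteins 2 did. Polr1a and Polr1b, the largest and second-largest subunits, differed from control by -0.13 to 0.25 and -0.31 to -0.04. The probe sets of Polr1a disagreed. A second one (mean signal 420, above 165 on 28 arrays) ran from 0.86 to 2.30, the highest with SP70 at 20 mg/kg. Another (mean signal 300) ran from -0.31 to 0.40. Ncl (nucleolin), with group means from 8036 to 9678, differed by -0.12 to 0.15, and Npm1 (nucleophosmin), a histone and rRNA chaperone with means from 15046 to 17544, by 0.06 to 0.22, also without a call. With SP70 at 20 mg/kg, where the Ncl probe set used was at 0.06, its other probe sets were at 0.50, 0.42, 0.32 and 0.07. The nucleolar helicase Ddx21 rose by 0.69 ± 0.14 (adjusted p = 0.000179), 0.40 ± 0.14 (adjusted p = 0.0196), 0.57 ± 0.14 (adjusted p = 0.00112) and 0.45 ± 0.14 (adjusted p = 0.0148) with SP70 at 20 and 40 mg/kg, SP30 and SP300 at 200 mg/kg. Its SP70 40 mg/kg call was lost without control replicate 3 or 4 or SP70 40 mg/kg replicate 4 (adjusted p up to 0.0725), and its SP300 call without control replicate 4 (adjusted p = 0.0575). Mybbp1a, a nucleolar regulator that binds RNA polymerase I, rose by 0.33 ± 0.10 (adjusted p = 0.00885) with SP70 at 20 mg/kg, which was lost with arrays centred (adjusted p = 0.0712), and by 0.35 ± 0.10 (adjusted p = 0.00396) with SP30.

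With the values as deposited, the rises did not grow steadily across the SP70 doses. Under quantile normalization the count of members higher than control did grow, from 4 to 12 and 18. Of the 36 members, 29 had a mean above control at some SP70 dose, whether called or not. The highest mean of these was at 20 mg/kg for 19, at 40 mg/kg for 7 and at 10 mg/kg for 3. This split was not counted over all genes or under rescaling. Of the SP70 doses, 20 mg/kg also had the largest share of all genes called higher (18.8%, against 12.5% at 10 mg/kg and 15.6% at 40 mg/kg). From 10 to 20 mg/kg, 5 members were higher and 1 lower (all genes 4.99% and 12%). Nolc1 and Nop58 were higher by 0.75 ± 0.19 (adjusted p = 0.00515) and 0.72 ± 0.19 (adjusted p = 0.008), Nop14 by 0.51 ± 0.17 (adjusted p = 0.0314), Utp20 by 0.36 ± 0.13 (adjusted p = 0.0497) and Ltv1 by 0.34 ± 0.10 (adjusted p = 0.0193). Rcl1 was lower by -0.40 ± 0.12 (adjusted p = 0.018). From 20 to 40 mg/kg, 1 member was higher and 2 lower (all genes 2.79% and 8.68%). Nolc1 and Nop58 turned, at -0.72 ± 0.19 (adjusted p = 0.0107) and -0.62 ± 0.19 (adjusted p = 0.0313), and Rcl1 turned the other way, at 0.44 ± 0.12 (adjusted p = 0.0137). These 3 members thus passed the threshold in both steps with opposite signs. Between 40 and 10 mg/kg, 3 were higher and 1 lower (all genes 5.21% and 25.3%), with Polr1a at 0.37 ± 0.13 (adjusted p = 0.0294), Gnl3 at 0.36 ± 0.14 (adjusted p = 0.0474), Utp20 at 0.33 ± 0.13 (adjusted p = 0.0499) and Fbl at -0.26 ± 0.10 (adjusted p = 0.0398). The Polr1a difference turned to -0.28 when its probe sets were averaged.

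**Figure D4:**
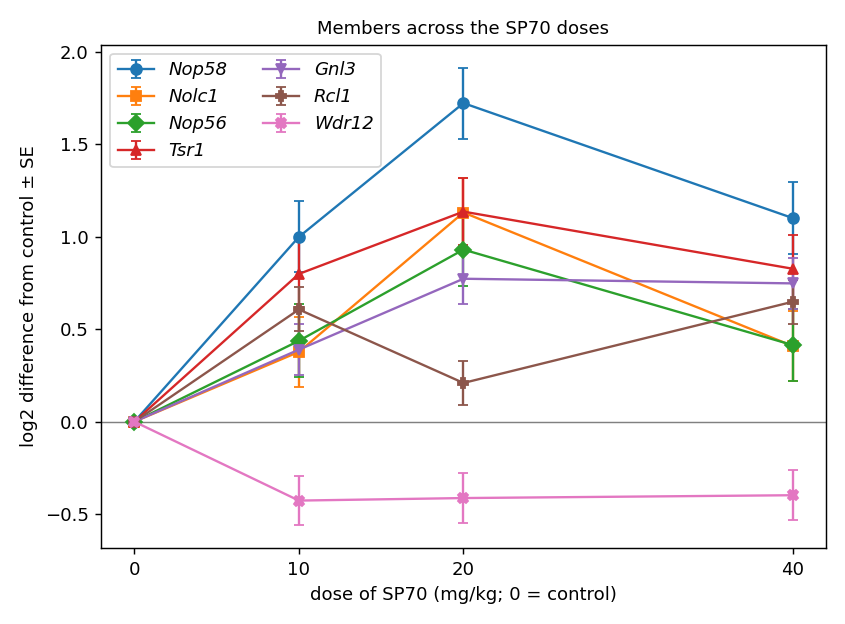
Difference from control in log2(signal + pseudocount) ± SE for 7 members against the dose of SP70 in mg/kg, with control set at 0 (5 mice per dose). Nop58, Nolc1 and Nop56 peak at 20 mg/kg, Rcl1 dips there, and Wdr12 stays near -0.4 at all 3 doses.

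These dose steps depended on the scaling and on single mice. For 20 against 10 mg/kg, quantile normalization gave 10 members higher and 0 lower, and centring 2 higher and 1 lower. The higher count was 12 without SP70 10 mg/kg replicate 2, 2 without SP70 10 mg/kg replicate 3 or SP70 20 mg/kg replicate 5, and 3 without SP70 10 mg/kg replicate 4 or 5 or SP70 20 mg/kg replicate 2 or 4. For 40 against 20 mg/kg, quantile normalization gave 2 higher and 1 lower, and centring 1 and 1. The turn of Nolc1 at 40 mg/kg was lost without SP70 40 mg/kg replicate 3 (adjusted p = 0.0578) and that of Rcl1 without SP70 40 mg/kg replicate 4 (adjusted p = 0.0579). The fall of Rcl1 from 10 to 20 mg/kg was lost under quantile normalization (adjusted p = 0.0594) and without SP70 10 mg/kg replicate 3 (adjusted p = 0.0706). The turn of Nop58 was lost under either rescaling and without any 1 of 7 mice (SP70 20 mg/kg replicates 2 to 5 and SP70 40 mg/kg replicates 2, 3 and 5; adjusted p up to 0.113). The rise of Nolc1 and Nop58 from 10 to 20 mg/kg stood in every alternative and without each mouse. That of Utp20 was lost in 5 alternatives and without any 1 of 8 mice (SP70 10 mg/kg replicates 1, 3, 4 and 5 and SP70 20 mg/kg replicates 2 to 5; adjusted p up to 0.160). That of Nop14 was lost in 2 alternatives and without any 1 of 5 mice (SP70 10 mg/kg replicates 3 and 4 and SP70 20 mg/kg replicates 2, 4 and 5; adjusted p up to 0.133). That of Ltv1 was lost with arrays centred and without SP70 10 mg/kg replicate 3 or 5 or SP70 20 mg/kg replicate 5 (adjusted p up to 0.0640). For 40 against 10 mg/kg, quantile normalization gave 9 higher and 0 lower and centring 1 and 1, and all 4 calls were lost without some single mouse, each of the 10 mice ending at least 1 of them.

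At the equal dose of 10 mg/kg the widest gap was between SP30 and SP300. There 17 members were higher with SP30 and 2 lower (all genes 16.2% and 35.6%), so 47.2% of the members were higher. The highest were Nop58 at 1.28 ± 0.19 (adjusted p = 9.28e-07), Tsr1 at 0.97 ± 0.18 (adjusted p = 2.57e-05), Rrp12 at 0.83 ± 0.21 (adjusted p = 0.00123), Gnl3 at 0.81 ± 0.14 (adjusted p = 7.94e-06) and Ddx21 at 0.67 ± 0.14 (adjusted p = 0.000157). Wdr12 was lower by -0.48 ± 0.13 (adjusted p = 0.00295) and Fbl by -0.40 ± 0.10 (adjusted p = 0.000701). Rrp12 is an example of a member called here and in neither comparison with control. Its signal was 507, 595, 619.5, 633 and 661 with SP30 and 236, 260.1, 294, 446 and 502 with SP300, with no overlap, and 271, 373, 581, 626 and 656 in control mice, which overlapped both. Noc4l, Nob1, Rrs1 and Noc3l were likewise higher with SP30 than with SP300 (0.33 to 0.45) with no call against control. These 4 calls were each lost in 1 or 2 alternatives and without any 1 of 3 (Noc4l), 5 (Nob1), 5 (Rrs1) or 7 (Noc3l) mice, each of the 10 mice ending at least 1 of them, with adjusted p up to 0.271. The calls of the 5 highest members and of Fbl stood in every alternative and without each mouse, and that of Wdr12 was lost when its probe sets were averaged (adjusted p = 0.0803). Without SP300 10 mg/kg replicate 5, 5 members were lower rather than 2. Under quantile normalization 21 were higher and 2 lower.

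SP70 and SP300 differed at 10 mg/kg in 5 members, all higher with SP70 (all genes 10.5% higher and 10.2% lower): Nop58 at 1.08 ± 0.19 (adjusted p = 7.11e-05), Tsr1 at 0.64 ± 0.18 (adjusted p = 0.0101), Ddx21 at 0.43 ± 0.14 (adjusted p = 0.0269), Ltv1 at 0.39 ± 0.10 (adjusted p = 0.00536) and Gar1 at 0.33 ± 0.11 (adjusted p = 0.0348). The count ranged from 3 without SP70 10 mg/kg replicate 2 or 5 to 8 without SP70 10 mg/kg replicate 4 or SP300 10 mg/kg replicate 1 and 9 without SP300 10 mg/kg replicate 4, and quantile normalization gave 7 higher and 2 lower. The calls of Nop58, Tsr1 and Ltv1 stood in every alternative and without each mouse. Those of Ddx21 and Gar1 were lost with only the 2 groups fitted, and without any 1 of 4 and 6 mice (SP70 10 mg/kg replicates 1, 2, 3 and 5 and SP300 10 mg/kg replicates 2, 3 and 5 among them), with adjusted p up to 0.116 and 0.112. SP300 10 mg/kg replicate 4 was the highest of its group for Nop58, Tsr1, Gnl3, Nolc1, Nop56 and Wdr43. SP30 and SP70 differed at 10 mg/kg in 5 members (all genes 5.4% higher and 23.6% lower). With SP30, Gnl3 was higher by 0.47 ± 0.14 (adjusted p = 0.00917), Rcl1 by 0.38 ± 0.12 (adjusted p = 0.0154) and Heatr1 by 0.34 ± 0.11 (adjusted p = 0.016), while Dkc1 was lower by -0.33 ± 0.12 (adjusted p = 0.0406) and Fbl by -0.25 ± 0.10, just under the threshold. The Heatr1 call was lost with averaged probe sets and without SP30 10 mg/kg replicate 1 (adjusted p up to 0.373) and that of Rcl1 without SP30 10 mg/kg replicate 4 (adjusted p = 0.060). Under quantile normalization 8 members were higher and 0 lower, under centring 6 and 0, and without SP70 10 mg/kg replicate 2 6 and 0. The lower count was 0 without SP70 10 mg/kg replicate 3 or SP30 10 mg/kg replicate 1 or 3, and 1 without SP70 10 mg/kg replicate 1 or SP30 10 mg/kg replicate 2 or 4.

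At the doses called toxic, SP30 at 10 mg/kg and SP70 at 40 mg/kg were not told apart by any member: limma called 0 of 36 (3 at an unadjusted p under 0.05), where it called 3.68% of all genes higher and 2.03% lower with SP30. This does not show equal levels. The 95% interval of the SP30 minus SP70 difference was -0.29 to 0.49 for Nop58, -0.06 to 0.67 for Tsr1, -0.17 to 0.40 for Gnl3 and 0.09 to 0.58 for Rcl1. Without SP70 40 mg/kg replicate 4 or SP30 10 mg/kg replicate 1, 1 member was higher. SP30 against SP300 at 200 mg/kg gave 8 higher and 2 lower (all genes 11.6% and 17.5%). The highest were Rcl1 at 0.75 ± 0.12 (adjusted p = 9.68e-06), Nop58 at 0.68 ± 0.19 (adjusted p = 0.007), Rrs1 at 0.52 ± 0.18 (adjusted p = 0.0254), Nob1 at 0.52 ± 0.13 (adjusted p = 0.00316) and Tsr1 at 0.48 ± 0.18 (adjusted p = 0.0411), with Heatr1, Noc3l and Gnl3 at 0.47 to 0.48. Wdr12 was lower by -0.36 ± 0.13 (adjusted p = 0.039) and Nop16 by -0.34 ± 0.12 (adjusted p = 0.0315). The calls of Rcl1, Nop58, Nob1 and Gnl3 stood in every alternative and without each mouse, and that of Heatr1 was lost when its probe sets were averaged (adjusted p = 0.110). Those of Tsr1, Noc3l, Rrs1, Wdr12 and Nop16 were lost without any 1 of 7, 7, 4, 6 and 4 mice, each of the 10 mice ending at least 1 of them, and, except Rrs1, in 1 to 3 alternatives (adjusted p up to 0.133, 0.212, 0.0672, 0.888 and 0.768). Centring gave 6 higher and 3 lower, and 5 were higher without SP30 10 mg/kg replicate 2 or SP300 200 mg/kg replicate 1. The lower count was 0 without SP30 10 mg/kg replicate 2 or 3 or SP300 200 mg/kg replicate 4, and 1 without SP30 10 mg/kg replicate 4 or SP300 200 mg/kg replicate 1, 3 or 5.

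SP70 at 40 mg/kg against SP300 at 200 mg/kg gave 3 higher and 0 lower (all genes 5.04% and 10.4%): Nop58 at 0.58 ± 0.19 (adjusted p = 0.0347), Rcl1 at 0.42 ± 0.12 (adjusted p = 0.0144) and Ncl at 0.23 ± 0.08 (adjusted p = 0.0436). Centring the arrays gave 0 higher and 2 lower and turned the members' median from 0.07 to -0.03, and quantile normalization gave 5 and 0. Without SP70 40 mg/kg replicate 4 no member was higher, and 1 was without SP70 40 mg/kg replicate 1 or 5 or SP300 200 mg/kg replicate 1 or 3. The difference of Rcl1 from control was 0.98 with SP30, 0.65 with SP70 and 0.23 with SP300, the last without a call.

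Other genes of the pathway were taken from lists by function. Of all genes, 12.5%, 18.8% and 15.6% rose and 5.69%, 20.9% and 28.8% fell over the SP70 doses. The shares of all genes were 18% and 31.3% with SP30 and 12.6% and 18% with SP300 at 200 mg/kg. Of 45 other small subunit factors tested, 10, 24 and 10 rose and 0, 1 and 2 fell over the SP70 doses, 13 rose and 4 fell with SP30, and 10 rose and 1 fell with SP300 at 200 mg/kg. The processome protein Ngdn rose by 0.95 ± 0.09 (adjusted p = 3.08e-10) and the helicase Ddx52 by 0.87 ± 0.11 (adjusted p = 8.21e-08) with SP70 at 20 mg/kg. Esf1 (1.07 ± 0.14 (adjusted p = 1.4e-07)) and Utp14a (0.44 ± 0.10 (adjusted p = 0.000369)) rose there too. Of 56 other large subunit factors, 13, 31 and 16 rose and 0, 0 and 2 fell over the SP70 doses, 20 rose and 0 fell with SP30, and 13 rose and 0 fell with SP300 at 200 mg/kg. Eif6, which keeps the subunits apart until 60S is mature, rose by 1.18 ± 0.08 (adjusted p = 1.4e-14) with SP30 and 1.02 ± 0.08 (adjusted p = 1.14e-12) with SP70 at 20 mg/kg. Nol8 rose by 1.84 ± 0.21 (adjusted p = 9.48e-09) at SP70 20 mg/kg, where Pwp1 rose by 0.72, and Tma16 rose by 0.81 ± 0.12 (adjusted p = 6.34e-07) with SP30. With the values as deposited, both lists, like the members and like all genes, had their highest count of rises at SP70 20 mg/kg. For the members this did not hold under either rescaling of the arrays, and the lists were not counted under rescaling. With SP300 at 10 mg/kg limma called 0 of either list (11 and 7 at an unadjusted p under 0.05). It called 0.923% of all genes higher and 0.245% lower there.

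The remaining machinery was mixed, against shares of all genes of 18.8% higher and 20.9% lower at SP70 20 mg/kg and 18% and 31.3% with SP30. Of 17 other RNA polymerase I genes, 6 rose and 2 fell at SP70 20 mg/kg and 1 rose and 1 fell with SP30. The terminator Ttf1 rose by 0.73 ± 0.13 (adjusted p = 1.92e-05), Znrd1 by 0.50 and Polr1c by 0.38 at SP70 20 mg/kg, and the shared subunit Polr2f fell by 0.36 with SP30. Of 12 snoRNP assembly and other snoRNP genes, 4 rose and 4 fell with SP30: the assembly factor Rpap3 rose by 1.29 ± 0.18 (adjusted p = 1.73e-07), with Nufip1 at 0.70 and Naf1 at 0.50, and the H/ACA protein Nop10 was at -0.18. Of 16 exosome and nuclease genes, 7 rose and 2 fell at SP70 20 mg/kg (Xrn2 1.43, Exosc3 0.73, Exosc8 0.36 and Exosc7 -0.42). Of 21 RNA polymerase III genes, 4 rose and 8 fell with SP30, shares near those of all genes, with Polr3g at -1.29, the 5S factor Gtf3a at -1.04, Polr3k at -0.64 and Polr3d at 0.80.

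Few structural proteins of the ribosome passed the threshold. Of 43 cytosolic ribosomal protein genes with a single-gene probe set, out of 80 named, 0, 0 and 2 rose and 0, 2 and 8 fell over the SP70 doses, 2 rose and 0 fell with SP30, and 1 rose and 3 fell with SP300 at 200 mg/kg. Of all genes, 12.5%, 18.8% and 15.6% rose and 5.69%, 20.9% and 28.8% fell over the SP70 doses. The shares of all genes were 18% and 31.3% with SP30 and 12.6% and 18% with SP300 at 200 mg/kg. The 8 falls at SP70 40 mg/kg are thus a smaller share than that of all genes. Rps25 (0.70 ± 0.17 (adjusted p = 0.000674)) and Rpl12 (0.56 ± 0.14 (adjusted p = 0.00147)) rose with SP30, on probe sets with low control means of 558 and 610. Fau (-0.24) and Rps3 (-0.26), with control means of 36157 and 23246, fell with SP70 at 40 mg/kg. Of 20 nucleotide and polyamine synthesis genes, 4 rose and 4 fell at SP70 20 mg/kg (all genes 18.8% and 20.9%) and 3 rose and 9 fell with SP30 (all genes 18% and 31.3%), so the shares at SP70 20 mg/kg are near those of all genes. At SP70 20 mg/kg the polyamine enzyme Srm rose by 1.26 ± 0.18 (adjusted p = 5.32e-07) and the pyrimidine enzyme Cad by 1.21 ± 0.19 (adjusted p = 2.32e-06), while Umps (-1.11) and Paics (-0.50) fell. Myc itself was not higher in any treated group. Its signal was 725 to 5303 in the 5 control mice, 304 to 575 at SP70 20 mg/kg and 725 to 1843 with SP30. The differences were -1.17 ± 0.37 (adjusted p = 0.0232), -1.86 ± 0.37 (adjusted p = 0.000117) and -0.52 ± 0.37 (adjusted p = 0.269) over the SP70 doses. With SP30 the difference was -0.42 ± 0.37 (adjusted p = 0.365). With SP300 Myc was lower at both doses, by -1.70 ± 0.37 (adjusted p = 0.0118) at 10 mg/kg and -2.78 ± 0.37 (adjusted p = 3.86e-07) at 200 mg/kg. At 10 mg/kg its signals with SP70 (470 to 1261) and SP300 (314 to 810) overlapped the controls. At SP70 20 mg/kg 6 of 12 genes of Myc, Max and their partners rose and 3 fell (all genes 18.8% and 20.9%). With SP30 5 rose and 4 fell (all genes 18% and 31.3%). Mxd1, a partner of Max that opposes Myc, rose by 2.75 ± 0.24 (adjusted p = 8.48e-12) with SP30, with a mean signal of 1214 against 176 in control mice, and Mxi1 was at -0.40. Mycl had a mean signal of 394 in control mice and 40.7 with SP30, below the filter level of 165, so no fold is given for it.

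**Figure D5:**
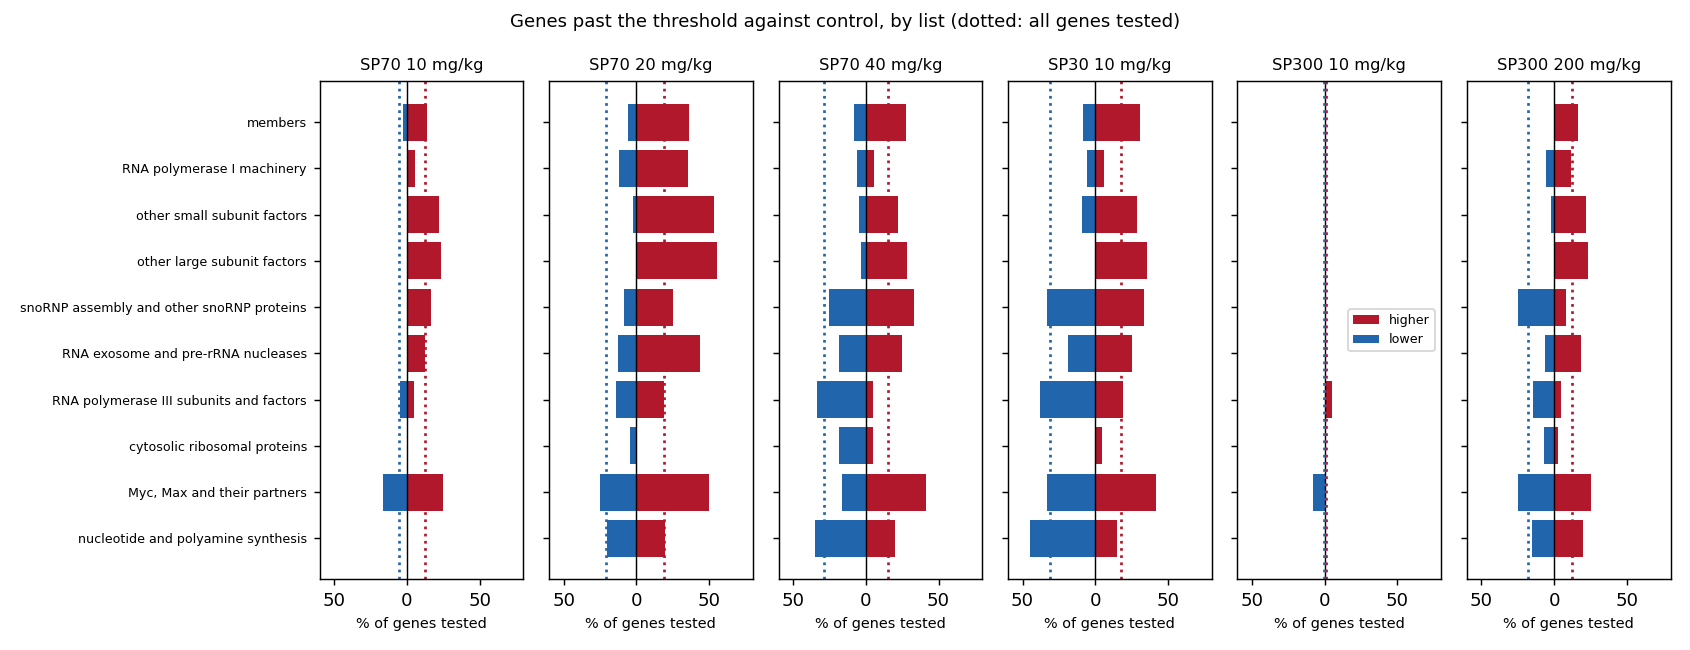
Percent of the genes tested in each list that were higher (red, right) or lower (blue, left) than control at an adjusted p under 0.05, in 1 panel per treated group; dotted lines give the same for all 12678 genes. At SP70 20 mg/kg the red bars of the members and of the other small and large subunit factors pass the dotted line at 18.8%, and the ribosomal proteins have no red bar there.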

How the data were processed

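Liver RNA from 35 mice was hybridised as biotin-labelled cRNA, 1 mouse an array. The authors deposited linear MAS5 intensity values for 45101 probe sets (the tool is named in the submitters' processing notes, without a version). The scaling between arrays was not stated, and none was added here. Control probe sets of the manufacturer were left out. Values were transformed as log2(signal + 12.5), 12.5 being their 10th percentile. Probe sets above 165 (the median value) on 5 or more arrays were kept. The brightest single-gene probe set stood for its gene, which left 12678 genes.

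Group means were estimated in 1 fit of all arrays with limma 3.58.1 (R 4.3.3), moderated with a trend, and 15 contrasts were tested. The labels call the arrays biological replicates. Replicate numbers did not pair mice across groups: deviations correlated at -0.00067 on average over 105 same-number pairs. The fit was tested on simulated data. Alternatives changed the pseudocount, filter, scaling, probe set rule, block, moderation and samples fitted, and left out each mouse. The members and lists were chosen with earlier results of these data known. Every member is named, and each comparison gives up to 5 members with the highest and 5 with the lowest difference past the threshold. Each pathway list is shown by up to 4 genes with the smallest adjusted p. Promoter windows are from RefSeq (GRCm38.p6).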

Additional observations from a re-analysis of the deposited data

Results flagged for a closer look

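In 17 of 252 combinations of a member and a group, 1 mouse stood apart from the other 4 by Dixon's criterion, where chance gives about 1 in 20, or 12.6. With SP70 at 10 mg/kg, replicate 4 was low for Npm1 (11394, the others from 17482 to 18263) and for Rrp9 (41.0, the others from 391 to 571), and replicate 2 was high for Nop16 (3715). This replicate 4 is the mouse without which 9 rather than 5 members rose at that dose. With SP70 at 20 mg/kg, replicate 4 was high for Polr1b (443), replicate 1 low for Utp20 (1096) and replicate 3 low for Noc4l (1005). With SP70 at 40 mg/kg, replicate 3 was high for Fbl (3602), replicate 5 for Ltv1 (3778) and replicate 4 for Rrs1 (4561).

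With SP30, replicate 4 was low for Noc3l (377). With SP300 at 10 mg/kg, replicate 5 was low for Nhp2 (4023) and replicate 4 was high for Wdr43 (2228) and Gnl3 (4912). With SP300 at 200 mg/kg, replicate 1 was low for Nop14 (683) and Noc3l (259). Among the control mice, replicate 5 was high for Wdr43 (1720.4) and replicate 4 low for Noc2l (465).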

How the results depend on the processing

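The main counts give 109 pairs of a member and a comparison. Of these, 87 (averaged probe sets) to 109 (filter passed on all arrays) kept direction and threshold under an alternative, and 65 did so without each mouse in turn. Of the 54 pairs against control, 34 stood in every alternative and without each mouse. One pair reversed: Polr1a, SP70 40 against 10 mg/kg, was -0.28 with averaged probe sets. Causes were not tested. With arrays the number of mice, 5 a group, limits the precision.

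Counts are written higher/lower. Quantile normalization gave 4/2 at SP70 10, 18/2 at SP70 40 and 10/0 at SP300 200 mg/kg against control. Between SP70 doses it gave 10/0 (20 against 10), 2/1 (40 against 20, where the members' median turned from -0.07 to 0.060) and 9/0 (40 against 10). Between particles it gave 8/0 (SP30 against SP70 at 10), 7/2 (SP70 against SP300 at 10) and 5/0 (SP70 40 against SP300 200). Centring gave 11/4 at SP70 20 (mean member level 0.21), and 2/1, 1/1, 1/1, 6/0 and 0/2 for 20 against 10, 40 against 20, 40 against 10, SP30 against SP70 at 10 and SP70 40 against SP300 200. Averaged probe sets gave 0 lower at SP70 10, 1 at SP70 20 and 4 at SP300 200, 2 lower for 20 against 10, 0/2 for 40 against 10 and 0 lower for SP30 against SP300 200. The filter passed on all arrays, which tested 34 members, gave 1 higher at SP300 10 and 1 lower at SP300 200. No filter gave 1 higher for 40 against 10, 0 lower for SP30 against SP70 at 10 and 1 lower for SP30 against SP300 200. No trend gave 1 higher for 40 against 10 and 1 lower for SP30 against SP70 at 10, and 4 times the pseudocount gave 1 lower there. Fits of only the 2 groups gave 0 lower at SP70 10, 3 higher for 20 against 10, 0/0 for 40 against 10, 0 lower for SP30 against SP70 at 10 and 3 higher for SP70 against SP300 at 10.

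The numbers do not pair the mice. With the replicate block, 105 of 109 pairs kept the threshold. The count lower for SP30 against SP70 at 10 mg/kg was 1 rather than 2, and no other count moved by over 1.5 times. Of 35 arrays, 8 correlated best with their own number.

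With each mouse left out in turn, the counts against control ran from 4 to 9 higher and 0 to 2 lower at SP70 10, 0 to 1 higher at SP300 10, and 2 to 7 higher and 0 to 2 lower at SP300 200. Between SP70 doses they ran from 2 to 12 and 0 to 1 (20 against 10), 0 to 1 and 0 to 3 (40 against 20) and 0 to 4 and 0 to 2 (40 against 10). At 10 mg/kg they ran from 2 to 6 and 0 to 2 (SP30 against SP70), 2 to 5 lower (SP30 against SP300), and 3 to 9 and 0 to 2 (SP70 against SP300). At toxic doses they ran from 0 to 1 higher (SP30 against SP70), 5 to 9 and 0 to 2 (SP30 against SP300) and 0 to 4 higher (SP70 against SP300). The report names the mice.

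Scaling also moved the split over all genes. The share of calls that were higher went under quantile normalization from 68.6% to 48.3% (SP70 10), 79.1% to 56.6% (SP300 10), 29.4% to 42.8% (20 against 10), 24.3% to 55.8% (40 against 20), 17.1% to 45.5% (40 against 10), 18.6% to 42.7% (SP30 against SP70 at 10) and 31.3% to 42% (SP30 against SP300 at 10). Under centring it went from 47.3% to 36.3% (SP70 20), 41.1% to 53.6% (SP300 200), 64.5% to 81.9% (SP30 against SP70 40) and 32.6% to 15.7% (SP70 40 against SP300 200). The median of all genes moved by over 0.1 under quantile normalization for 40 against 20 (-0.10 to 0.01), 40 against 10 (-0.13 to 0.00) and SP30 against SP70 at 10 (-0.13 to -0.01), and under centring for SP70 40 against SP300 200 (-0.06 to -0.16).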
